A study of Homo sapiens with 7 samples.

Results

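The zinc finger genes named ZNF that lie on human chromosome 19 were followed over 720 min of blue light in opto-PKR cells of the human line H4, an established neuroglioma line. They were chosen by name and chromosome, and by a level of 10 or more transcript counts in at least 3 libraries. Of 247 such names, 211 passed, which is 1.56% of the 13566 genes that passed the same filter. Opto-PKR is the stress kinase PKR fused to Cry2Olig, a plant-derived protein that clusters in blue light, and the study's design text names the integrated stress response, which PKR starts by phosphorylating the translation factor eIF2, as the question. Cells in glass-bottom plates were lit continuously for 0, 60, 120, 240, 480, 600 or 720 min and lysed at once. Every group carries the fusion, including the unlit cells at 0 min, and each is 1 bulk library made with an adapted CEL-Seq2 protocol, which tags the 3' ends of transcripts with molecular identifiers (UMIs). The table at hand for 480 min is cut short before the names of these genes, so they were measured in 6 libraries. Neither unlit cells kept as long nor lit cells lacking the fusion were analysed here, so light and time in the plate cannot be told apart.

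Most of these genes encode C2H2 zinc finger proteins, in which a row of fingers reads DNA. Many also carry a KRAB box, which recruits the corepressor TRIM28 (KAP1), and TRIM28 in turn brings in the histone methyltransferase SETDB1 to build heterochromatin. KRAB zinc finger proteins are best known for silencing retrotransposons and some imprinted genes, and the family grew by tandem duplication, so that many members sit side by side in clusters on chromosome 19.

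Of the 211 members, 196 reached 10 counts in all 6 libraries, 6 in 5 libraries, 7 in 4 and 2 in 3. The members just inside the limit were ZNF625, with 6, 10, 7, 19, 13 and 7 counts at 0, 60, 120, 240, 600 and 720 min, and ZNF808, with 6, 4, 16, 11, 13 and 8 counts. Just outside it, ZNF284 had 12, 8, 8, 7, 11 and 8 counts and ZNF671 had 5, 5, 19, 11, 7 and 3. ZNF439 and ZNF833P also reached 10 counts in 2 libraries, 2 names did so in 1 library and 30 in none. The complete libraries held between 7048135 and 8911644 transcript counts over 16495 to 17018 listed genes. Reads per UMI were 2.11 and 2.08 at 60 and 120 min, and 2.36, 2.32, 2.37 and 2.38 at 0, 240, 600 and 720 min. Of the glial and mesenchymal markers, VIM stayed between 682 and 886 CPM (transcript counts scaled to 1000000 per library) and CD44 between 495 and 703 CPM in the 6 libraries. NES was at 1.65 CPM or less, and GFAP and S100B were not listed among the counted genes of any library. OLIG2, a glial transcription factor, was at 5.06, 6.85, 11.0, 17.9, 20.5 and 18.1 CPM at 0, 60, 120, 240, 600 and 720 min and bent upward in the test described below (1.29 ± 0.27, SE, adjusted p = 0.00456, edgeR). SOX2, a neural progenitor factor, was at 36.0, 43.6, 54.5, 38.4, 15.9 and 27.3 CPM and was not called. Of the neuron markers, SNAP25 was at 6.004, 5.31, 3.84, 2.76, 1.49 and 0.396 CPM and fell in the trend test (log2 change -3.02 ± 0.48, SE, adjusted p = 0.0104, edgeR), while RBFOX3 and SYP were at most at 0.660 and 1.38 CPM. The part of these shifts in the members' results was not tested. Epithelial, blood and endothelial marker lists summed to at most 0.256, 0.353 and 0.824 CPM in any of them. Of 6 genes of the integrated stress response, ATF4, TRIB3 and ASNS rose in the trend test described below, where 3.90% of all genes did. TRIB3 was at 387 CPM at 720 min, against 44.6 CPM at 0 min. The others had no trend call. At 240 and 0 min DDIT3 was at 96.5 and 15.3 CPM, PPP1R15A at 398 and 51.0 CPM and CHAC1 at 430 and 49.4 CPM. Only DDIT3 was called for an upward bend (1.40 ± 0.37, SE, adjusted p = 0.0260, edgeR), where 17.5% of all genes were.

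The RefSeq promoters of 3 members show the kind of sequence these genes start from: ZNF441, the member with the largest upward bend in the results below, ZNF766, the one with the smallest adjusted p among upward bends, and ZNF556, the one with the largest downward bend among called members that have a sequence. Each runs from 250 bases before to 50 bases after the annotated start in GRCh38.p14, on the plus strand, at chr19:11766750-11767049, chr19:52269337-52269636 and chr19:2867085-2867384. Capitals mark matches, on either strand, to CCAAT, the core of the NF-Y site, to GGGCGG, the GC box, and to CCGGAAG, the core of an ETS factor site.
ZNF441: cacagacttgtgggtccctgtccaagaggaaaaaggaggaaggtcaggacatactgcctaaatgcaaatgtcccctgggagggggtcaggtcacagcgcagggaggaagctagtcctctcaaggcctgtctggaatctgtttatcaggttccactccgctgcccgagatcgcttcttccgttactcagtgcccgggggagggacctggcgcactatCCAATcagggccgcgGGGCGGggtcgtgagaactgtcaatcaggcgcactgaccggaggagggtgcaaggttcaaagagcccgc
ZNF766: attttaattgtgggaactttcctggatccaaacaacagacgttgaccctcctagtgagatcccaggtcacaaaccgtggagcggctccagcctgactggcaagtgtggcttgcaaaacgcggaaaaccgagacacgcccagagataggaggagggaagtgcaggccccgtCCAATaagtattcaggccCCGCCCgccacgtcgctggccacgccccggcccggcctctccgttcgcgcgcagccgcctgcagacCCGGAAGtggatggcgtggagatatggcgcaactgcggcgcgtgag
ZNF556: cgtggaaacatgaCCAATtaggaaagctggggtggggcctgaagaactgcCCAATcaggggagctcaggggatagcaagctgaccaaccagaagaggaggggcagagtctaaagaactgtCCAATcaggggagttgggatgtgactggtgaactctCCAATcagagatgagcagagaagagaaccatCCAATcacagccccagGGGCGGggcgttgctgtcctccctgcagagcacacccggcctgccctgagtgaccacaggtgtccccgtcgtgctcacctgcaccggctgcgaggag

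The ZNF766 promoter held all 3 motifs and those of ZNF441 and ZNF556 held CCAAT and GGGCGG, with 5 copies of CCAAT in ZNF556. Over the 183 members with a promoter in the RefSeq table, CCGGAAG stood in 46.5%, against 28.5% of the 288 promoters of ZNF genes on other chromosomes, 14.2% of those of 1328 other coding genes on chromosome 19 and 10.3% of all 35116 promoters. CCAAT stood in 55.7% of the members' promoters, against 39.2%, 36.0% and 34.6% in the same 3 sets, in that order. Against 56.25%, 66.3% and 45.0% in these sets, the GC box stood in 65.6% of the members' promoters. The palindrome TGACGTCA, a cyclic AMP response element, stood in 3.83% of them, against 3.13% for ZNF genes on other chromosomes, 3.01% for other coding genes on chromosome 19 and 1.85% of all promoters, and TGATGNAA, the element bound by ATF4 with a C/EBP partner, in 1.64%, against 1.04%, 2.11% and 3.62% in the same 3 sets. Both strands were searched, none of these motifs contains another, and a match describes letters in this window only.

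Members as a group stood above their 0 min level at 60, 120 and 240 min and near it at 600 and 720 min. The median log2 ratio to 0 min over the 211 members was 0.51, 0.60, 0.59, -0.01 and 0.06 at 60, 120, 240, 600 and 720 min, with a prior count of 2. Above their 0 min level were 178, 174, 162, 104 and 112 members at these times. At 60 min 84.4% of members were above 0, against 49.5% of all genes tested, whose medians stayed between -0.03 and 0.00 at these times. With 1 library a time these ratios have no test. In bulk RNA, fewer cells of a kind and less RNA per cell cannot be told apart. Reads per UMI, given above, were lower at 60 and 120 min than in the other complete libraries, and their part in these ratios was not tested.

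Summed over members, the level was 3390.4, 4609, 5025, 5327, 3633 and 3661 CPM at 0, 60, 120, 240, 600 and 720 min. Relative to 0 min this is 1.36-fold at 60 min, 1.48-fold at 120 min, 1.57-fold at 240 min (95% interval for counting error 1.55 to 1.59), 1.07-fold at 600 min and 1.08-fold at 720 min (1.06 to 1.10). Of the measured times, the sum was highest at 240 min, and it had come down most of the way by 600 min. No member was measured between these times, so a peak after 240 min would not be seen. Without ZNF317 and ZNF441, the pair that added most counts, the sum at 240 min was still 1.50-fold that at 0 min. A single member was highest most often at 240 min (78 members), followed by 120 min (59) and 60 min (37). It was lowest most often at 0 min (72) and 720 min (61). Of all 13566 genes, 3234 were highest at 240 min, 1281 at 120 min and 1288 at 60 min. Lowest at 0 min were 2889 of them, and at 720 min 2918. The commonest time of the highest level, 240 min, and the commonest times of the lowest, 0 and 720 min, were thus shared with all genes. The next commonest times of the highest level were not shared: 120 and 60 min in members, 0 and 720 min in all genes.

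**Figure D1:**
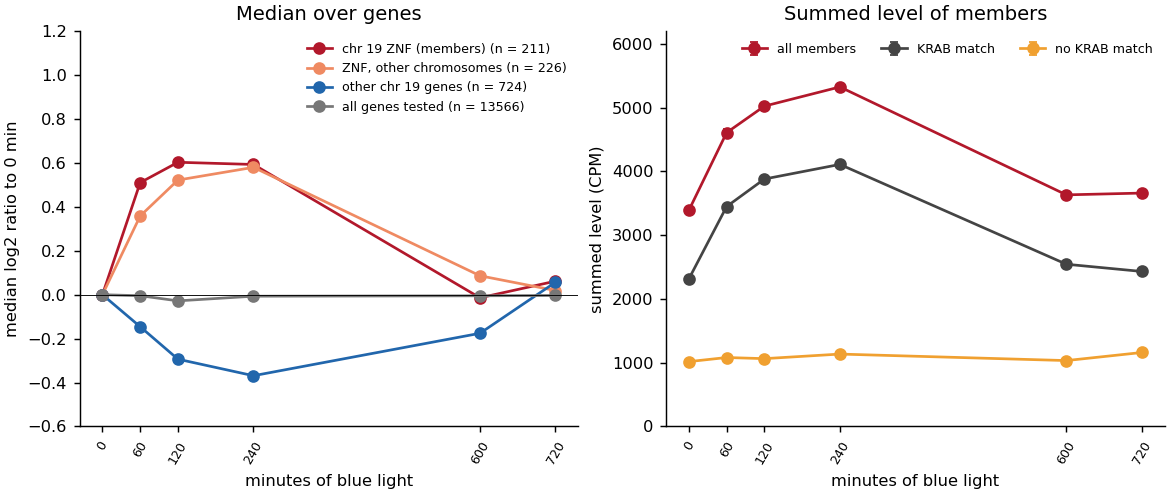
Left, median log2 ratio to 0 min (prior count 2) against minutes of blue light for the 211 members, 226 ZNF genes on other chromosomes, 724 other genes on chromosome 19 and all 13566 genes tested. Right, summed level in CPM for all members, members with a KRAB match and members without one, with 95% intervals for counting error that are mostly smaller than the points. The members' median is 0.59 at 240 min and 0.06 at 720 min, and the sum of members without a KRAB match stays between 1017 and 1160.2 CPM.

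Changes past 2-fold were counted where either library had 50 or more counts. At 60 min 21 of 165 members were at least 2-fold above 0 min, where 2.19% of all genes were, and 0 were 2-fold below, where 0.411% of all genes were. At 120 min 49 of 172 members were 2-fold up and 4 were 2-fold down, against 5.63% and 3.11% of all genes. At 240 min it was 50 up and 3 down of 174, against 10.5% and 6.13%. The members' share of 2-fold increases was above that of all genes at these 3 times. At 600 min it was 5 up and 1 down of 162, against 6.34% and 4.60%, and at 720 min 3 up and 3 down of 155, against 4.92% and 4.64%, so at the late times the members' shares lay below those of all genes.

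Because each time has 1 library, the test rests on a smooth curve over time: the residual from the curve stands in for the spread between replicates. The bend is the fitted log2 level at 360 min minus the average of those fitted at both ends, 0 and 720 min. A positive bend is thus a level that is higher in the middle than the average of the ends. By edgeR's quasi-likelihood test with Benjamini-Hochberg adjustment over all 13566 genes, 61 of the 211 members bent upward, where 17.5% of all genes did, and 9 bent downward, where 13.7% of all genes did. The bend was positive in 166 members, its median was 0.56 (range -2.11 to 3.12), and the median over all genes was 0.01. At an unadjusted p under 0.05 there were 96 members in both directions together (45.5%), near the 43.4% of all genes. The count of upward calls leans on the first and the fourth library. With the 0 min library left out it was 15, where 9.25% of all genes were called upward. With the 240 min library left out it was 8, where 6.31% were. In both of these fits the members' share of upward calls was below that of all genes, unlike in the main fit. On a log scale of time the count was 103, where 16.0% of all genes were called upward. All 61 kept a positive bend in every alternative that tested them.

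The 61 members called upward were all above their 0 min level at 60, 120 and 240 min, and 47 of them were at 600 min and 31 at 720 min. Their median log2 ratio to 0 min was 0.73, 1.07, 1.27, 0.26 and 0.04 at 60, 120, 240, 600 and 720 min, values that describe members picked by the same libraries. Of the measured times, the highest level fell at 240 min in 49 of them and at 120 min in 12. The 141 members called in neither direction had medians of 0.43, 0.38, 0.37, -0.12 and 0.07 at these times, with 114 above 0 min at 60 min, so members without a call also stood above 0 min early on.

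**Figure D2:**
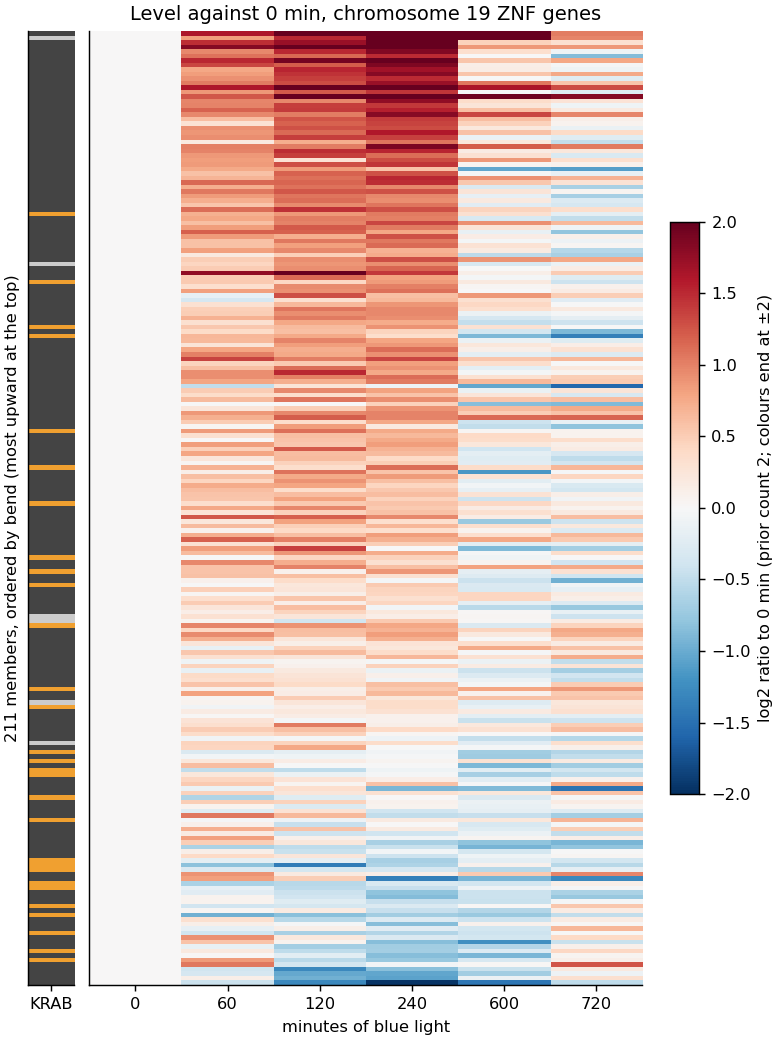
Each row is 1 of the 211 members, ordered by bend with the most upward at the top, and the columns are the 6 libraries by minutes of blue light. Colour is the log2 ratio to 0 min (prior count 2, colours end at 2 and -2), and the strip at the left marks a KRAB match in black, none in orange and no coding sequence in grey. The upper rows are red at 60, 120 and 240 min and pale at 600 and 720 min.

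The 8 members with the smallest p among upward bends were ZNF766, ZNF441, ZNF772, ZNF274, ZNF14, ZNF317, ZNF181 and ZNF773. ZNF441, a KRAB protein with 14 finger matches, was at 13.2, 40.7, 87.2, 128, 55.4 and 27.1 CPM at 0, 60, 120, 240, 600 and 720 min. Its level was 9.71-fold that of 0 min at 240 min (log2 ratio with the prior count 3.26, 95% interval for counting error 3.00 to 3.57) and still 2.05-fold at 720 min, and its bend of 3.12 ± 0.40 (SE, adjusted p = 0.00152, edgeR quasi-likelihood test) was the largest of any member. ZNF766 was at 34.0, 52.3, 81.4, 90.1, 52.4 and 36.9 CPM, so it ended close to its start. Its bend was 1.51 ± 0.24 (SE, adjusted p = 0.00113, edgeR quasi-likelihood test). ZNF772 was at 16.1, 31.7, 46.1, 59.0, 20.5 and 15.2 CPM, with a bend of 1.95 ± 0.32. ZNF14 was at 6.24, 13.4, 14.1, 18.1, 6.31 and 3.30 CPM, with a bend of 1.92 ± 0.34, and at 720 min it lay below its 0 min level (log2 ratio -0.86, 95% interval for counting error -1.67 to -0.21).

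ZNF274 is a KRAB protein known to bind the 3' ends of zinc finger genes themselves and to recruit TRIM28 and SETDB1 there. It was at 40.3, 61.4, 80.2, 102, 76.3 and 62.9 CPM, with a bend of 1.18 ± 0.20 (SE, adjusted p = 0.00182, edgeR quasi-likelihood test). It was 2.53-fold its 0 min level at 240 min and, unlike ZNF766 and ZNF772, had kept a log2 ratio of 0.64 (95% interval for counting error 0.44 to 0.85) at 720 min. ZNF317 had the highest mean level of all members, at 184, 278, 326, 404, 226 and 189.7 CPM, and a bend of 1.11 ± 0.20. ZNF181 was at 21.4, 26.1, 48.8, 55.1, 29.5 and 22.6 CPM and ZNF773 at 7.77, 16.2, 19.6, 26.1, 16.4 and 11.5 CPM, with bends of 1.50 ± 0.27 and 1.59 ± 0.29. All 8 were highest in the 240 min library. Without that library ZNF317 (adjusted p = 0.0684) and ZNF181 (adjusted p = 0.0503) were no longer called by the edgeR test. ZNF14, ZNF274, ZNF441, ZNF766, ZNF772 and ZNF773 were called upward in each of the 15 alternatives. Among these, the fit without the 480 min library only repeats the one on the 6 complete libraries, since no member was measured at 480 min.

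**Figure D3:**
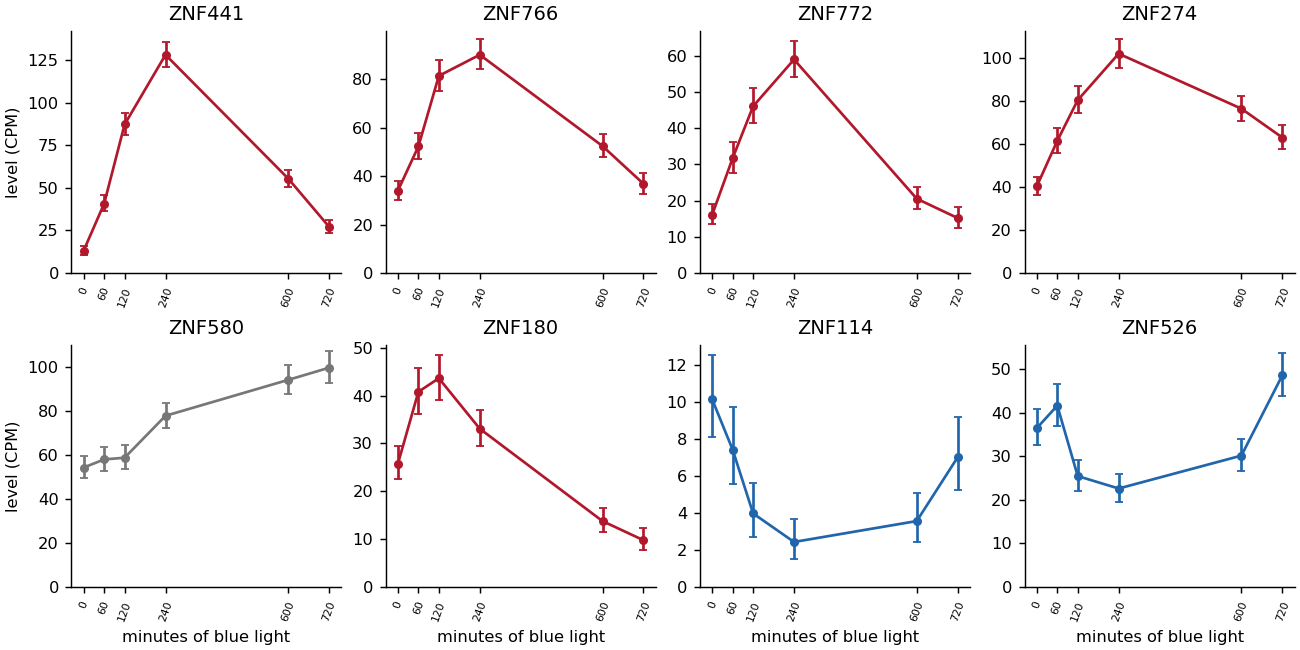
Level in CPM against minutes of blue light for 8 members, each in 6 libraries of 1 sample, with exact 95% intervals for counting error. Of the measured times, ZNF441, ZNF766, ZNF772 and ZNF274 are highest at 240 min, and ZNF114 and ZNF526 are lowest then. ZNF580 climbs to 99.5 CPM at 720 min, and ZNF180 declines after 120 min. Colours give the bend call, red for upward, blue for downward and grey for neither.

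The 9 members that bent downward had a lower fitted level in the middle of the time course than the average of its ends. ZNF114, a KRAB protein with 3 finger matches, was at 10.1, 7.41, 3.97, 2.43, 3.56 and 7.00 CPM at 0, 60, 120, 240, 600 and 720 min, on 86, 53, 31, 22, 31 and 53 counts. Its bend was -2.11 ± 0.35 (SE, adjusted p = 0.00147, edgeR quasi-likelihood test), the only downward call that held in each of the alternatives. ZNF526, without a KRAB match, was at 36.5, 41.7, 25.5, 22.6, 30.2 and 48.6 CPM, so it dipped at 120 and 240 min and was higher at 720 min than at 0 min (log2 ratio 0.41, 95% interval for counting error 0.19 to 0.64). ZNF554 was at 11.8, 9.22, 5.63, 5.63, 7.23 and 11.0 CPM, and ZNF556, of the same chromosomal run and with its promoter shown above, at 6.24, 6.71, 3.07, 2.87, 5.74 and 7.79 CPM. Both were back near their start by 720 min. ZNF793 was at 17.3, 15.5, 10.8, 10.6, 11.5 and 18.5 CPM, and ZNF665 at 8.83, 6.57, 3.46, 4.85, 6.42 and 10.2 CPM. ZNF428, with 1 finger match, and ZNF737 had bends of -0.72 ± 0.22 and -1.08 ± 0.37. The 9th, ZNF358 (bend -0.58), was outside the rule for named genes and is given to complete the count. Without the 240 min library ZNF526, ZNF554, ZNF793, ZNF665, ZNF556, ZNF428 and ZNF737 were not called, with adjusted p from 0.0632 to 0.2355 in the edgeR test. Neither were ZNF554, ZNF793, ZNF665, ZNF556 and ZNF428 without the 0 min library (0.0636 to 0.2509), nor ZNF793, ZNF665, ZNF428 and ZNF737 without the 720 min library (0.0578 to 0.3518). ZNF428 was also lost without the 120 min library (0.062), and ZNF737 without the 60 min (0.0635) or the 600 min library (0.0687). On the log scale of time ZNF526, ZNF793, ZNF556 and ZNF737 were not called (adjusted p from 0.0529 to 0.447, edgeR), with read counts neither were ZNF428 (0.0531) and ZNF737 (0.106), and with DESeq2 neither were ZNF665 (0.0601), ZNF556 (0.0552) and ZNF737 (0.105).

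A steady change from 0 to 720 min was rare. By the same edgeR test on the slope, 1 member rose, where 3.90% of all genes did, and 1 fell, where 2.96% of all genes did (6.86% in either direction), and 32 members (15.2%) had an unadjusted p under 0.05, against 23.1% of all genes. ZNF580, with 3 finger matches and no KRAB match, was at 54.2, 57.9, 58.6, 77.6, 93.9 and 99.5 CPM, which the slope puts at a log2 change of 0.89 ± 0.19 (SE) with an adjusted p of 0.0279 in edgeR's quasi-likelihood test. ZNF180 was at 25.8, 40.8, 43.6, 33.1, 13.8 and 9.78 CPM, with a log2 change of -1.95 ± 0.43 by the slope (SE, adjusted p = 0.0330, edgeR), and it was also called for an upward bend of 0.91 ± 0.30. The bend was not called without the 0, 120 or 240 min library (adjusted p from 0.0651 to 0.4628, edgeR test) or with read counts (0.0621), and the trend was not called on the log scale of time (0.202). ZNF180 stood higher at 60 and 120 min and far lower at 600 and 720 min than at 0 min. Both trend calls were lost when the 60, 120, 600 or 720 min library was left out, with adjusted p between 0.0775 and 0.2142 in the edgeR test. The fitted slope was negative in 161 of the 211 members, with a median log2 change of -0.36, against 51.4% of all genes and a median of -0.02. Without the 0 min library 32 members were called for a falling trend, where 5.28% of all genes were.

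Members of high level or known role differed in how far they moved. After ZNF317, the members with the highest mean levels were ZNF787 (156 CPM), ZNF146 (145 CPM), ZNF480 (84.1 CPM) and ZNF83 (81.2 CPM), as 3'-end counts that do not scale with transcript length, and none of these 4 was called for bend or trend. ZNF146, known as OZF and made almost wholly of fingers, was at 130.4, 152, 144, 136, 161 and 148 CPM, a narrow range. ZNF787 was at 137, 136, 128, 155, 160.1 and 220.5 CPM, with its highest level at 720 min and an adjusted p of 0.0892 for the trend in the edgeR test. ZNF304 was at 21.2, 38.7, 55.4, 46.4, 26.3 and 17.0 CPM and bent upward by 1.42 ± 0.32 (SE, adjusted p = 0.00691, edgeR quasi-likelihood test). ZNF568, whose mouse counterpart represses a placental transcript of Igf2, was at 6.95, 11.2, 15.1, 20.3, 13.3 and 11.4 CPM and bent upward by 1.33 ± 0.29. Both were highest at 120 or 240 min. ZNF331, an imprinted gene, bent upward by 0.56 ± 0.19 (adjusted p = 0.0363, edgeR quasi-likelihood test), with 75.4 CPM at 240 min against 49.9 CPM at 0 min. Without the 0 min library ZNF304 (adjusted p = 0.0803), ZNF568 (0.0596) and ZNF331 (0.251) were not called, and without the 240 min library neither were ZNF568 (0.1199) and ZNF331 (0.2374). ZNF331 was also lost without the 60 min (0.0539) or the 120 min library (0.0777), or with read counts (0.0556).

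The other members of known role were not called for bend or trend by the edgeR test. ZNF91, which silences SVA retrotransposons, was at 8.83, 14.7, 13.3, 10.0, 7.46 and 12.5 CPM, so it was highest at 60 min and lowest at 600 min, with a bend of -0.20 ± 0.40. ZNF675, an inhibitor of TRAF6 signalling also called TIZ, was at 9.54, 12.3, 13.2, 9.82, 9.64 and 9.38 CPM. ZNF224, a repressor of the aldolase A gene, was at 3.41, 2.80, 4.22, 2.54, 2.98 and 2.77 CPM, on 20 to 33 counts a library. At that depth its log2 ratio at 240 min, -0.40, had an interval for counting error from -1.28 to 0.41. ZNF649, a repressor of serum response element activity, was at 14.8, 25.7, 22.8, 23.1, 13.0 and 11.6 CPM, with a bend of 0.68 ± 0.30 (adjusted p = 0.0995, edgeR quasi-likelihood test).

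At 60 min the largest ratios to 0 min were those of ZNF564 (log2 ratio 1.78, 95% interval for counting error 1.27 to 2.43), ZNF77 (1.61, 0.92 to 2.54) and ZNF441 (1.61, 1.31 to 1.95). ZNF564 was at 4.12, 14.7, 17.3, 11.4, 4.47 and 5.94 CPM, an early rise that was over by 600 min, and its bend was not called (adjusted p = 0.369, edgeR quasi-likelihood test). ZNF77 was at 2.24, 7.27, 10.4, 9.71, 7.46 and 5.81 CPM and bent upward by 1.57 ± 0.48 (adjusted p = 0.0275, edgeR quasi-likelihood test), a call that was lost without the 0 min (0.2921) or the 240 min library (0.0709). The lowest ratios at 60 min were those of ZNF414 (-0.96, -1.48 to -0.53), ZNF444 (-0.63, -0.93 to -0.34) and ZNF628 (-0.60, -0.93 to -0.30), none with a KRAB match. ZNF414 was at 15.3, 7.69, 8.45, 9.38, 9.06 and 10.8 CPM and stayed under its 0 min level in all 5 later libraries.

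Members with a KRAB match had higher bends, by median, than members without. A pattern for the KRAB A box was found in the translated coding sequence of 176 members, it was not found in 29, and 6 had no coding sequence in GENCODE release 29. The pattern can miss a diverged box. Of the 176 with a match, 55 bent upward (31.25%) and 6 downward (3.41%), with a median bend of 0.68. Of the 29 without one, 5 bent upward (17.2%) and 3 downward (10.3%), with a median of 0.04. Among all genes 17.5% bent upward and 13.7% downward, so the upward share without a match was near that of all genes. The summed level of members with a match was 2314, 3449.6, 3881, 4111, 2545 and 2431 CPM at 0, 60, 120, 240, 600 and 720 min, 1.78-fold at 240 min over 0 min (95% interval for counting error 1.75 to 1.81). The sum of those without one was 1017, 1081, 1064, 1135, 1033 and 1160.2 CPM, 1.12-fold at 240 min (1.08 to 1.15). At 60 min 158 of the 176 with a match were above their 0 min level, and 14 of the 29 without. All 21 members that were 2-fold up at 60 min had a KRAB match, but so did most of those compared, 136 with a match against 27 without. Members with a match also had a lower median of mean levels, 11.4 CPM against 27.7 CPM. The difference between these classes was not tested.

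Finger number varied widely. By the pattern C-x2-C-x12-H-x3-H the members had between 0 and 36 finger matches, the most in ZNF208, with a median of 13 with a KRAB match and 9 without. Of 10 members with 1 to 4 matches, 1 bent upward and 2 downward, where 17.5% and 13.7% of all genes did. Their median bend was -0.45. Medians were 0.56 for 43 members with 5 to 9 matches, 0.56 for 84 with 10 to 14 and 0.69 for 67 with 15 or more. Across members, which share libraries and ancestry, Pearson's r of the bend was 0.06 with finger matches (n = 205), 0.07 with log2 mean level (n = 211) and 0.10 with the number of CpG in the promoter (n = 183). All of these are weak. Among the promoters, CCGGAAG stood in 29 of 54 members called upward, 55 of 122 not called and 1 of 7 called downward. In the same order, CCAAT stood in 29, 68 and 5 of them, and GGGCGG in 36, 78 and 6. TGACGTCA stood in 0, 7 and 0, and TGATGNAA in 1, 2 and 0. Differences between these classes were not tested.

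Along the chromosome the members fall into 11 runs of 5 or more zinc finger genes with at most 2 other coding genes between neighbours, in the RefSeq order of GRCh38.p14, and 183 members lie in such a run. Against the 17.5% of all genes that bent upward, the shares called upward ran from 0 to 66.7% over the runs, and upward bends were called in each run except those from ZNF559 to ZNF846 and from ZNF579 to ZNF580. In the run from ZNF264 to ZNF446, which holds ZNF274, ZNF304, ZNF772 and ZNF773, 16 of 36 members (44.4%) bent upward and 0 downward, with a median bend of 0.92. In the run from ZNF577 to ZNF331, which holds ZNF766, it was 11 of 33 upward and 1 downward, with a median of 0.68. In the run from ZNF565 to ZNF573, which holds ZNF568, 8 of 22 bent upward and 1 downward, with a median of 0.66, and in the run from ZNF283 to ZNF180 it was 5 of 15 and 0, with a median of 0.68. In the shorter run from ZNF582 to ZNF71, 4 of 6 bent upward, with a median of 0.76. The run from ZNF627 to ZNF791, with ZNF441, had a median of 1.05 and 4 upward calls of 19 (21.1%), near the share of all genes. The run from ZNF101 to ZNF254, which holds ZNF91, ZNF675 and ZNF14, had a median of -0.03, with 3 upward (10.3%) and 1 downward calls of 29, although 27 of its 29 members were above their 0 min level at 60 min. Its median log2 ratio was 0.55, 0.24, 0.08, -0.11 and 0.06 at 60, 120, 240, 600 and 720 min, so it was highest at the first lit time. The 6 members from ZNF579 to ZNF580 had a median bend of 0.10 and 0 bend calls by edgeR, with 0 at an unadjusted p under 0.05.

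**Figure D4:**
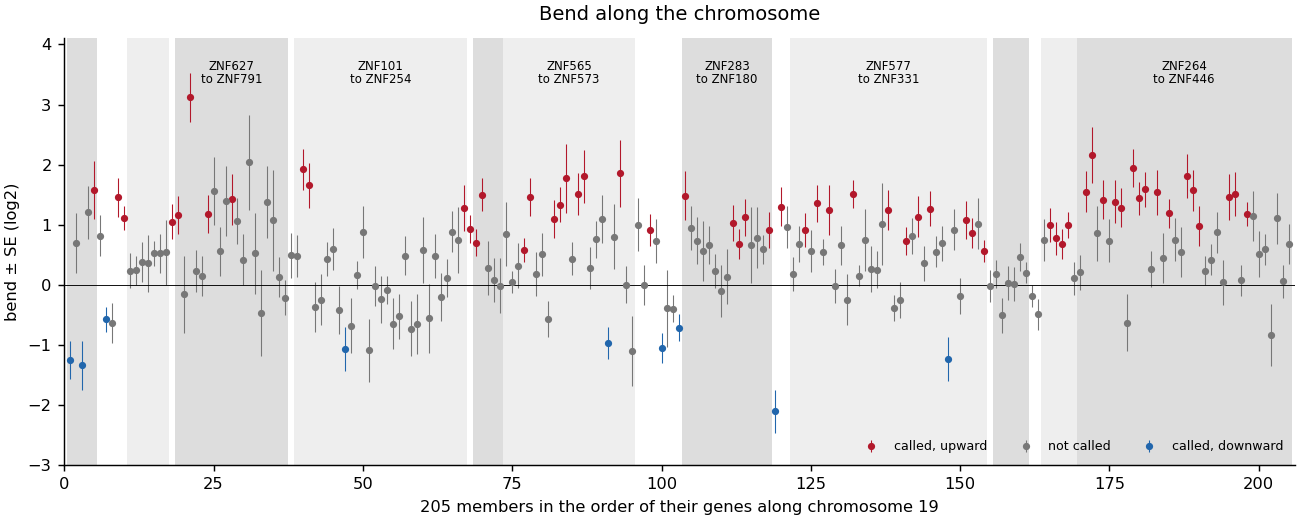
Bend with its SE (log2) for the 205 members found in the RefSeq order, in that order along chromosome 19. Shaded bands are the 11 runs, and the longer ones are named. Red points are called upward, blue downward and grey neither. Red points are most numerous in the run from ZNF264 to ZNF446, where 16 of 36 are called.

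Near-identical copies can share reads. The last 300 bases of each member's transcript were compared with the whole transcripts of other C2H2 genes, and 6 members had a stretch of 100 bases or more at 97% identity or more. These were ZNF320 and ZNF468, which matched each other, ZNF443 and ZNF799, which also did, ZNF324, which matched ZNF446, and ZNF808, which matched ZNF701. Another 8, among them ZNF761, ZNF765 and ZNF816, belong to read-through genes. Of these, ZNF468, ZNF761, ZNF765 and ZNF816 were called upward, and their counts are uncertain to that extent.

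ZNF genes elsewhere in the genome had medians like those of the members, and the other genes on chromosome 19 had medians of opposite sign at 60, 120 and 240 min. Of 226 ZNF genes on other chromosomes, 80 bent upward (35.4%) and 9 downward (3.98%), with a median bend of 0.62. The shares were 28.9% and 4.27% for members, and 17.5% and 13.7% for all genes. For ZNF genes on other chromosomes the median log2 ratio to 0 min was 0.36, 0.52, 0.58, 0.09 and 0.02 at 60, 120, 240, 600 and 720 min. At 60 min 5.06% of them were 2-fold up, against 12.7% of members, and the difference was not tested. Of the 724 other genes on chromosome 19, 29 bent upward (4.01%) and 230 downward (31.8%), with a median of -0.41. Their summed levels at 0, 240 and 720 min were 61959, 50638 and 68377 CPM. Of 16 chromosome 19 genes of the same C2H2 class under other names, 11 passed the filter and 3 bent upward, where 17.5% of all genes did: ZSCAN22, at 10.6 CPM at 240 min and 4.59 CPM at 0 min, ZFP82, at 11.6 CPM at 240 min and 5.53 CPM at 0 min, and ZIK1, which is outside the rule for named genes and completes the count. Without the 0 min or the 240 min library neither ZSCAN22 nor ZFP82 was called (adjusted p from 0.1038 to 0.2204, edgeR test).

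**Figure D5:**
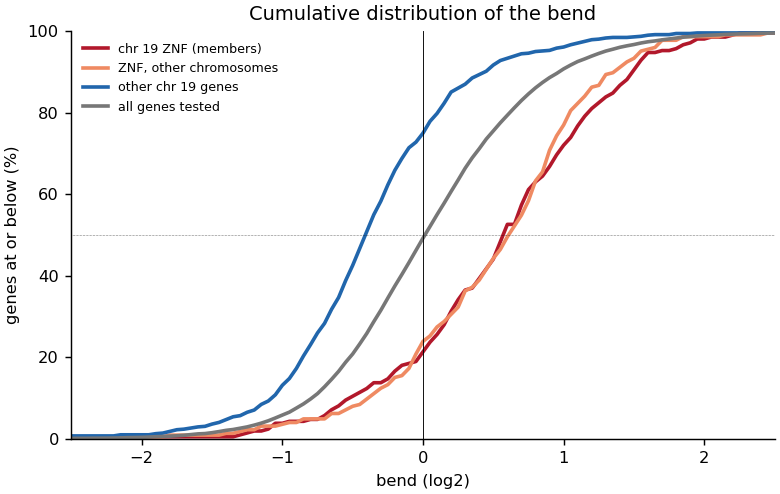
Cumulative distribution of the bend (log2) for the 211 members, 226 ZNF genes on other chromosomes, 724 other genes on chromosome 19 and all 13566 genes tested. The curves of the members and of ZNF genes on other chromosomes lie close together, with medians of 0.56 and 0.62, to the right of all genes (0.01), and other genes on chromosome 19 lie to the left (-0.41).

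The partners through which KRAB proteins silence chromatin were called at shares near those of all genes. Of 28 cofactors and heterochromatin genes, all tested, 4 bent upward, where 17.5% of all genes did, 4 bent downward, where 13.7% did, and 1 fell in the trend, where 2.96% did. Their median bend was -0.12, against 0.01 for all genes. TRIM28, which binds the KRAB box, was at 329.8, 269, 258, 243, 233 and 265 CPM at 0, 60, 120, 240, 600 and 720 min, the highest in unlit cells, with a bend of -0.38 ± 0.16 that was not called (adjusted p = 0.0773, edgeR quasi-likelihood test). SETDB1 was at 39.9, 47.7, 71.7, 82.2, 44.7 and 43.5 CPM and bent upward by 1.03 ± 0.25 (SE, adjusted p = 0.00856, edgeR), with its highest level at 240 min. FAM208A (TASOR), a subunit of the HUSH silencing complex, was at 57.1 CPM at 240 min and 34.3 CPM at 0 min, and SMARCAD1, a chromatin remodeller that binds TRIM28, at 119.9 CPM at 240 min and 58.2 CPM at 0 min. Both bent upward, by 0.94 ± 0.16 and 1.00 ± 0.20. MBD3, a NuRD subunit, was at 21.2 CPM at 240 min and 50.7 CPM at 0 min and bent downward by 1.11 on the log2 scale, and CBX1 (HP1 beta) was at 119 CPM at 240 min and 183 CPM at 0 min with a bend of -0.61 ± 0.14. Without the 240 min library SETDB1 (adjusted p = 0.1704) and SMARCAD1 (0.0624) were not called, and without the 0 min library neither were SETDB1 (0.077) and CBX1 (0.0543). CBX1 was also lost without the 720 min library (0.0695), and on the log scale of time FAM208A (0.136) and CBX1 (0.0643) were not called.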

How the data were processed

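RNA of opto-PKR H4 cells was measured at 7 times, with 1 library each, by an adapted CEL-Seq2 protocol with primer 4, per the labels' protocols. Reads were placed with BWA on hg19, per the submitters' processing notes. Versions, gene models and the counter are not given in the sources used. For each library the authors deposited expected counts of reads, UMIs and transcripts in 96 barcode columns. Column 4 of the transcript table was used, rounded to whole numbers, and the other 95 columns (at most 0.0667% of a table) and spike-in genes (0.00657% to 0.00999% of transcripts) were left out. How the authors treated reads that fit several copies of a gene family is not given, so counts of near-identical genes may be shared.

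Levels are CPM, counts scaled to 1000000 of TMM effective library size. Trend and bend were fitted by robust quasi-likelihood tests (edgeR 4.0.16, R 4.3.3) on minutes, with minutes squared for the bend, over genes with 10 or more counts in at least 3 libraries, with Benjamini-Hochberg adjustment and a threshold of 0.05. Genes within the range of the 480 min table were fitted on 7 libraries and later names, all members included, on 6, which leaves 4 residual degrees of freedom for the trend and 3 for the bend. P-values thus measure the scatter of single libraries about a smooth curve, not the spread between cultures. The fit was tested on simulated data. Intervals of ratios are exact 95% binomial intervals, and those of levels, in the figures, are exact 95% Poisson intervals. Both cover counting error only, since UMIs correct for copies but not for losses before tagging. The intervals of ratios leave out the prior count that the log2 ratios include. Alternatives were RLE size factors, other filters, UMI or read counts, 6 libraries throughout, log2(minutes + 60), DESeq2 1.42.0, other prior counts and each library left out. A paired or batch term could not be fitted, and the labels give no batch.

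Members and gene lists were chosen with earlier results of these data known. Named members are the 8 of smallest bend p and the 5 of smallest trend p in each direction among those called, the 5 of highest mean level, the 3 of largest ratio in each direction at 60 min with 50 or more counts in either library, and 9 of known role. Of the other lists, TRIM28, SETDB1 and the 2 of smallest bend p in each direction among those called are named. KRAB and finger patterns were searched in the longest translated coding sequence of GENCODE release 29, promoters and gene order come from RefSeq (GRCh38.p14), and no coordinates were carried between builds.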

Additional observations from a re-analysis of the deposited data

How the results depend on the processing

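Leaving out 1 library gave 8 to 88 upward and 1 to 9 downward bends, and 0 to 2 rising and 0 to 32 falling trends. Over these fits 6.31% to 17.9% of all genes bent upward, and 1378 to 4294 genes were called for the bend in either direction. Rising trends were called in 0.708% to 5.68% of all genes and falling trends in 0.369% to 5.28%. On the log time scale 103 members bent upward and 5 downward. Of all 13566 genes, 3930 were called for the bend on that scale, 2172 of them upward. In its trend 0 members fell, where 2.39% of all genes did. DESeq2 called 5 downward bends among members, and 3708 bends over all genes, 2128 of them upward. It called 7 members for a falling trend, where 5.29% of all genes fell. Read counts gave median log2 ratios of 0.54 at 60 min and 0.69 at 120 min, and summed levels of 1.39-, 1.58-, 1.67-, 1.09- and 1.10-fold at 60, 120, 240, 600 and 720 min. RLE size factors gave 0.64 and 1.52-fold at 120 min, UMI counts 1.54-fold at 240 min, and a prior count of 5 a median of 0.57 at 240 min. With 20 counts as the minimum, 4 members were 2-fold down at 600 min and 5 were 2-fold up at 720 min. Of 659 values of 44 named results under the alternatives, 572 kept direction and side of the threshold, 64 lost the call, 5 gained one (ZNF83, ZNF564 and ZNF649) and 18 changed sign, all of bends that were not called. On the log time scale the bend was -0.15 for ZNF580, 0.35 for ZNF91 and 0.061 for ZNF224. With UMI and read counts ZNF628 was at 0.0024 and 0.046. Over the libraries left out, bends ran from -0.50 to 0.057 for ZNF787, from -0.088 to 0.24 for ZNF146, from -1.07 to 0.047 for ZNF414, from -0.48 to 0.39 for ZNF628, from -0.30 to 2.20 for ZNF564, from -0.97 to 0.51 for ZNF91, from -0.27 to 0.37 for ZNF224 and from -0.26 to 0.47 for ZNF675. The cause of these shifts was not tested. No paired analysis was possible because each time has 1 library. Depth limits the ratios of low members such as ZNF224, whose interval at 240 min spans 0.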
